A study of Mus musculus with 12 samples.

Results

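The genes described here were the cytochrome P450 genes of families 1 to 4 in the mouse kidney. They were chosen by name, as every gene whose symbol is Cyp, a family number from 1 to 4, a subfamily letter and a gene number, with at least 10 counts summed over the 12 libraries. Of 76 genes with such a symbol among the 56722 in the count table, 52 met the rule: 2 of family 1, 32 of family 2, 3 of family 3 and 15 of family 4. Cyp3a57 with 10 counts and Cyp2c67 with 12 lay just inside the rule, and Cyp3a59 with 8 and Cyp2c55 with 7 just outside. A further 39 P450 entries of these families, mostly pseudogenes and genes with a letter suffix, fell outside it, among them Cyp4a12a and Cyp4a12b. After a filter on low counts 39 members could be tested, and the other 13 are given by their counts.

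Whole kidneys of Pod-TRECK mice were profiled by poly(A)-selected, paired-end RNA sequencing in 4 groups of 3. Pod-TRECK mice carry a receptor for diphtheria toxin in podocytes, the filtration cells of the glomerulus, so that the toxin injures these cells. Control mice had the same genotype and received no treatment; the other 3 groups received 100 ng of diphtheria toxin intraperitoneally and were sampled 5, 14 or 21 days later. No group without the receptor was given toxin, and age and sex are not stated. The replicates are described as biological, and the promoter that drives the receptor is not named in the labels. Xist, made in females, had 24 counts over the 12 libraries and 4 Y-linked genes were expressed in each (Ddx3y at 42.2 to 71.5 on the counts-per-million scale, CPM), the pattern of males.

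Total counts ran from 31023852 to 46420299 a library. Levels are given as CPM on library sizes scaled by TMM, in the order of replicates 1, 2 and 3, with the mean ± SD (n = 3) where one is stated. The podocyte gene Nphs1 stood at 20 to 24.6 CPM in controls and at 0.268 to 1.99 CPM in 8 of the 9 toxin libraries. The ninth, day-21 replicate 2, had 16.5 CPM. Its summed level of the P450 members, 8160 CPM, lay between day 5 (6180 to 6860) and the controls (10100 to 11100). For Cyp2j5 it was at 1230 CPM, within the day-5 range of 1150 to 1280. Counts of members called are therefore given with and without this library. The 4 groups share 1 estimate of the spread in the model, and the counts for the other days also moved when it was left out. Day-14 replicates 1 and 2 were the closest pair within any group (chi-square of 4.59 per degree of freedom over genes, against 11.7 for the next closest), above the value of sampling noise, and were kept as separate samples.

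Cytochrome P450 enzymes are heme proteins that insert an oxygen atom into lipids, steroids, drugs and pollutants, with electrons passed on by the reductase Por. Families 1 to 3 are known mainly for xenobiotics and steroids, the Cyp2c and Cyp2j subfamilies also for arachidonic acid epoxides, and family 4 for hydroxylation at the end of fatty acid chains. In the kidney most of this activity lies in the proximal tubule, where the products of Cyp4a and Cyp2c enzymes act on salt transport and vascular tone.

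All P450 enzymes hold the heme iron through the sulfur of 1 cysteine, in a loop that starts with phenylalanine and has glycines at fixed places. A script searched the longest reading frame of each member's GENCODE M21 transcripts (GRCm38) for this loop of 10 codons and found it in 50 of the 52 members, all but Cyp2b10 and Cyp2s1. The cysteine codon was TGC in 31 and TGT in 19, and the 50 loops had 40 distinct sequences. The loops of the members on which the results turn are shown 5′ to 3′, with the cysteine codon in capitals. They show what the family shares. An equal loop did not mark near-copies: Cyp2d9 and Cyp2d22 had the same loop and were 78.7% identical over the coding sequence.
Cyp4b1: ttttctgcagggcccaggaatTGCattggg
Cyp2e1: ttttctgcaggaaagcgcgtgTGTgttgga
Cyp2j5: ttctcaatgggaaaaagagctTGTcttgga
Cyp2j9: ttctcaatgggaaaacgtgctTGTcttgga
Cyp2j6: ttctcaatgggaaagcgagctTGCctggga
Cyp2a4 and Cyp2a5: ttttccattggaaaacggtatTGTttcgga
Cyp2d9, Cyp2d22 and Cyp2d26: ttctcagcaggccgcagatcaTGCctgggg
Cyp2d12: ttttcagcaggccgcagatcaTGCctgggg
Cyp2c40, Cyp2c67, Cyp2c68 and Cyp2c69: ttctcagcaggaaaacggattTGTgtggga
Cyp4a10, Cyp4a31 and Cyp4a32: ttctcaggaggagccaggaacTGCattggg
Cyp4a14: ttctcaggaggatcaaggaacTGCattggg
Cyp4f18: ttctcggctgggcccaggaacTGCatagga
Cyp1b1: ttctcagtgggcaaacggaggTGCatcggt
Over the whole coding sequence, 11 of 116 pairs of members of the same subfamily were over 95% identical. Cyp2a4 and Cyp2a5 shared 98.5% of aligned bases, Cyp4a10 and Cyp4a31 96.6%, Cyp4a10 and Cyp4a32 97.2%, and Cyp4f16 and Cyp4f37 95.7%. The authors' treatment of reads that match several genes is not given in the sources used here, so values of these near-copies are uncertain where counting could split or drop shared reads.

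The summed level of the 52 members was 10200, 11100 and 10100 CPM in controls, 6860, 6560 and 6180 CPM at day 5 and 2240, 2280 and 1990 CPM at day 14. At day 21 it was 2640 and 2110 CPM in replicates 1 and 3 and 8160 CPM in replicate 2. The day-5 mean was thus 62.2% and the day-14 mean 20.7% of the control mean of 10500 ± 561 CPM, and neither group overlapped the controls. Only a few genes made up most of this sum. In controls Cyp4b1, Cyp2j9, Cyp2j5 and Cyp2e1 held 73.1% of the members' summed CPM, a share that also reflects transcript length. Cyp2j9 may not be separate from Cyp2j5, as described below, and this share and the summed levels include both. Per kilobase of transcript the highest control levels were those of Cyp4b1 (670 ± 74.8 CPM per kb), Cyp2j5 (657 ± 38.4) and Cyp2e1 (545 ± 17.4), followed by Cyp2a4 (235 ± 31) and Cyp4a10 (142 ± 30.6). The first 2 did not differ beyond their spread.

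**Figure D1:**
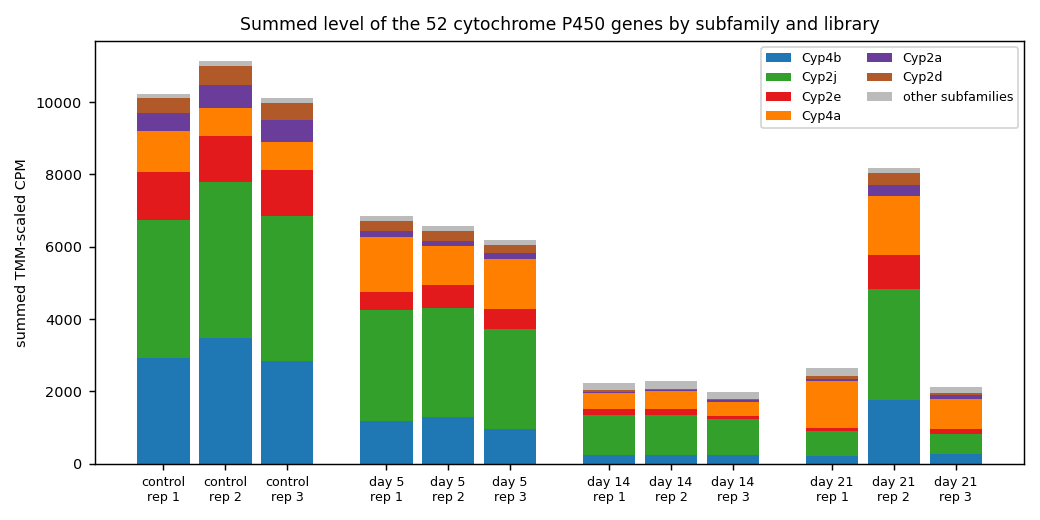
Stacked bars give the TMM-scaled CPM of the 52 P450 genes in each of the 12 libraries, summed by subfamily. Sums lay between 10100 and 11100 in controls and between 1990 and 2280 at day 14, and day-21 replicate 2 reached 8160 while the other day-21 libraries stood at 2640 and 2110.

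The proximal tubule markers fixed for these samples, 20 genes that include Slc34a1, Lrp2 and Kap, moved in the same direction as the P450 sum. At day 14 the marker sum was at 6.8% of its control mean and the P450 sum at 20.7%. Kap alone had a mean of 30300 CPM of the marker sum of 54800 in controls, and of 473 CPM at day 14. Their summed level was 51300 to 59800 CPM in controls, 37200 to 40300 at day 5 and 3700 to 3750 at day 14, and 4910, 33900 and 3670 CPM at day 21. All 20 were detected, and 1 fell at day 5, 20 at day 14 and 11 at day 21 (12, 20 and 20 without day-21 replicate 2). Among all genes 5.09%, 28.8% and 18.5% fell (14.9%, 30.9% and 28.4% without that library). In bulk tissue fewer cells of a type and less RNA in each cell cannot be told apart. The part of tubule cell number in the falls below was not tested.

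At day 5, 3 members fell and 2 rose of the 39 tested (edgeR quasi-likelihood test, Benjamini-Hochberg adjusted p under 0.05), while 5.09% of all 19821 tested genes fell and 9.77% rose. At day 14, 23 members fell and 10 rose, against 28.8% and 31.2% of all genes. By day 21, 11 fell and 9 rose, against 18.5% and 24.3% of all genes. The median log2 fold change of the tested members was -0.36, -1.49 and -0.60 at the 3 days, where that of all genes was 0, 0.08 and 0.07. Falls at day 14 thus made up 59% of the tested members and rises 25.6%. In family 2, 16 of 22 tested members fell and 3 rose at day 14, and in family 4, 6 of 14 fell and 5 rose.

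Without day-21 replicate 2, 13 of 40 tested members fell and 4 rose at day 5, 24 fell and 11 rose at day 14, and 20 fell and 11 rose at day 21. The background also rose in that fit, to 14.9% and 17.4% of genes falling and rising at day 5, 30.9% and 34.7% at day 14, and 28.4% and 33.2% at day 21. The members that fell only in that fit at day 5 were Cyp2a4, Cyp2d9, Cyp2d12, Cyp2e1, Cyp2j5, Cyp2j9, Cyp2j11, Cyp2j13, Cyp4b1 and Cyp4f14. Leaving out day-5 replicate 2 instead left 1 fall at day 5. At day 21 the count of falls was 5 without any 1 control, 4 without day-21 replicate 1 and 3 without day-21 replicate 3. TMM scaling set the zero point of these changes: scaled by library totals alone, the median of all genes moved up by 0.14, 0.73 and 0.48 at the 3 days. On that scale 1 member fell and 1 rose at day 5, 19 and 13 at day 14, and 10 and 13 at day 21, and of all genes 2211 fell and 13158 rose at day 14 in place of 5701 and 6189.

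**Figure D2:**
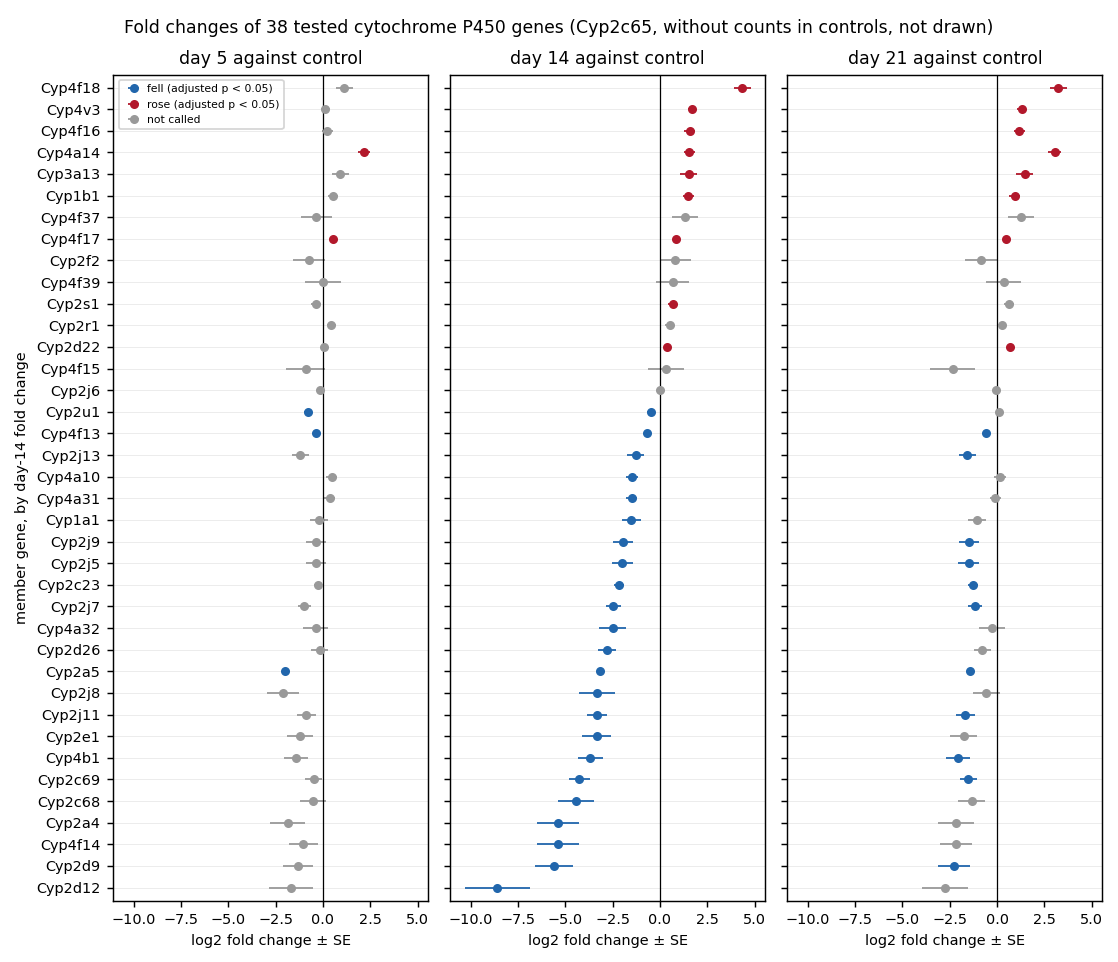
Points give log2 fold changes ± SE against control for the tested members, in order of the day-14 value, at day 5, day 14 and day 21, with called falls in blue, called rises in red and genes without a call in grey. At day 14, 23 members fell and 10 rose, against 3 and 2 at day 5 and 11 and 9 at day 21. Cyp2c65, without control counts, is counted among the rises at days 14 and 21 and is not drawn.

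Cyp4b1, which hydroxylates medium-chain fatty acids and activates some protoxins, had the highest level of all members in controls. It stood at 2920, 3470 and 2840 CPM in controls, 1190, 1300 and 971 at day 5, 239, 237 and 247 at day 14, and 223, 1750 and 254 at day 21. Every toxin library lay below every control. The fitted log2 changes were -1.42 ± 0.63 at day 5 (edgeR adjusted p = 0.162, and 3.83e-06 without day-21 replicate 2), -3.67 ± 0.68 at day 14 (adjusted p = 0.000972) and -2.06 ± 0.64 at day 21 (adjusted p = 0.0259). The day-14 call held in all 12 fits that left out 1 library, and the day-21 call in 7 of 12, being lost without any 1 control and without day-21 replicate 1 or 3.

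Cyp2e1, which oxidises ethanol, acetone and small solvents, stood at 1350, 1270 and 1280 CPM in controls and at 489, 640 and 548 at day 5. At day 14 it was at 157, 158 and 66.7 CPM and at day 21 at 86.8, 921 and 135. No toxin library reached the controls, and the third day-14 library was lower than its 2 companions. The log2 change was -3.35 ± 0.76 at day 14 (edgeR adjusted p = 0.00312), and it was -1.22 ± 0.70 at day 5 (adjusted p = 0.288) and -1.77 ± 0.72 at day 21 (adjusted p = 0.0656). The last 2 passed without day-21 replicate 2 (adjusted p = 0.00497 and 3.92e-06).

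Cyp2e1 is also made in fat, and fat markers differed between libraries of a group. The summed level of 6 adipocyte genes, Adipoq among them, was 52.9, 141 and 17.8 CPM in controls, 0.363, 167 and 20.6 at day 5, 490, 489 and 22.7 at day 14, and 2.23, 9.37 and 336 at day 21. Adipoq, the adiponectin gene, had a log2 change of 2.18 ± 1.67 at day 14 (edgeR adjusted p = 0.28). The libraries with high and low Cyp2e1 at day 14 were those with high and low fat markers, as were those of Cyp2f2, a lung-type P450, at 6.33, 6.28 and 0.365 CPM, and Cyp4f15 at 1.23, 1.13 and 0 CPM. In day-14 replicate 3, a single library, the fat markers were within the range of controls and Cyp2e1 was at 66.7 CPM. Among the controls the fat markers ranged from 17.8 to 141 CPM and Cyp2e1 from 1270 to 1350 CPM. The part of fat in these values was not tested.

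The Cyp2j subfamily, whose members make epoxides of arachidonic acid, held 4040 ± 249 CPM in controls and 1080 ± 71.4 CPM at day 14, or 26.7% of the control mean. Of its 7 members 6 fell at day 14 and 5 at day 21. Cyp2j5, the epoxygenase known from mouse kidney and liver, was at 1490, 1670 and 1560 CPM in controls, 1280, 1240 and 1150 at day 5, 412, 414 and 368 at day 14, and 241, 1230 and 195 at day 21. Its log2 change was -0.36 ± 0.54 at day 5 (edgeR adjusted p = 0.709, and 0.00877 without day-21 replicate 2), -1.98 ± 0.56 at day 14 (adjusted p = 0.0101) and -1.50 ± 0.55 at day 21 (adjusted p = 0.0472). Each day-5 library lay below the lowest control, and in 2 of 3 libraries the day-21 level was the lowest of all. The day-21 call of Cyp2j5 held in 1 of 12 fits that left out a library, the one without day-21 replicate 2, and the same was true of Cyp2j9.

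Cyp2j9 was counted at 1.09 to 1.17 times Cyp2j5 in every library, at 1640, 1820 and 1720 CPM in controls and 464, 465 and 416 CPM at day 14. The deposited transcript length of Cyp2j9, 39328 bases, exceeds the 23150 bases that its deposited start and end span, which was true of no other member. Its level per length therefore cannot be read, and its log2 change of -1.94 ± 0.54 at day 14 (edgeR adjusted p = 0.00917) may not be separate from that of Cyp2j5. The coding sequences of these neighbours were 78.8% identical. The Cyp2j sum and the counts of members that fell include both genes.

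Cyp2j11 fell most among the abundant Cyp2j genes. It stood at 284, 317 and 326 CPM in controls, 182, 171 and 149 at day 5, 29.6, 30.7 and 31.4 at day 14, and 42.5, 207 and 40.2 at day 21. The log2 change was -3.34 ± 0.54 at day 14 (edgeR adjusted p = 0.000444) and -1.68 ± 0.51 at day 21 (adjusted p = 0.0233). Cyp2j13 had another time course, with its fall in place at day 5: it was at 350, 457 and 346 CPM in controls, 162, 187 and 153 at day 5, 170, 168 and 137 at day 14, and 64.6, 261 and 63.6 at day 21. Its log2 change was -1.28 ± 0.45 at day 14 (edgeR adjusted p = 0.0297) and -1.57 ± 0.46 at day 21 (adjusted p = 0.02), and -1.20 ± 0.45 at day 5 (adjusted p = 0.102, and 2.63e-05 without day-21 replicate 2). Between days 5 and 14 it differed by -0.08 ± 0.45 (adjusted p = 0.889). The day-14 call of Cyp2j13 was lost without control replicate 2 or any 1 day-14 library.

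Cyp2j6, in the same cluster, was the only Cyp2j member with no call at any day in this fit. It stood at 48.0, 42.0 and 46.9 CPM in controls, 42.7, 38.5 and 40.7 at day 5, 45.8, 43.9 and 45.3 at day 14, and 46.1, 38.3 and 45.5 at day 21. Its log2 change at day 14 was -0.02 ± 0.09 (edgeR adjusted p = 0.849), an error narrower than that of any other Cyp2j gene. The remaining members, Cyp2j7 and Cyp2j8, were at or under 1.42 CPM in every library, and both fell at day 14. Day-14 libraries of Cyp2j8 overlapped the controls. Its call was lost without control replicate 1, which had 33 counts against 2 and 14 in the other controls.

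**Figure D3:**
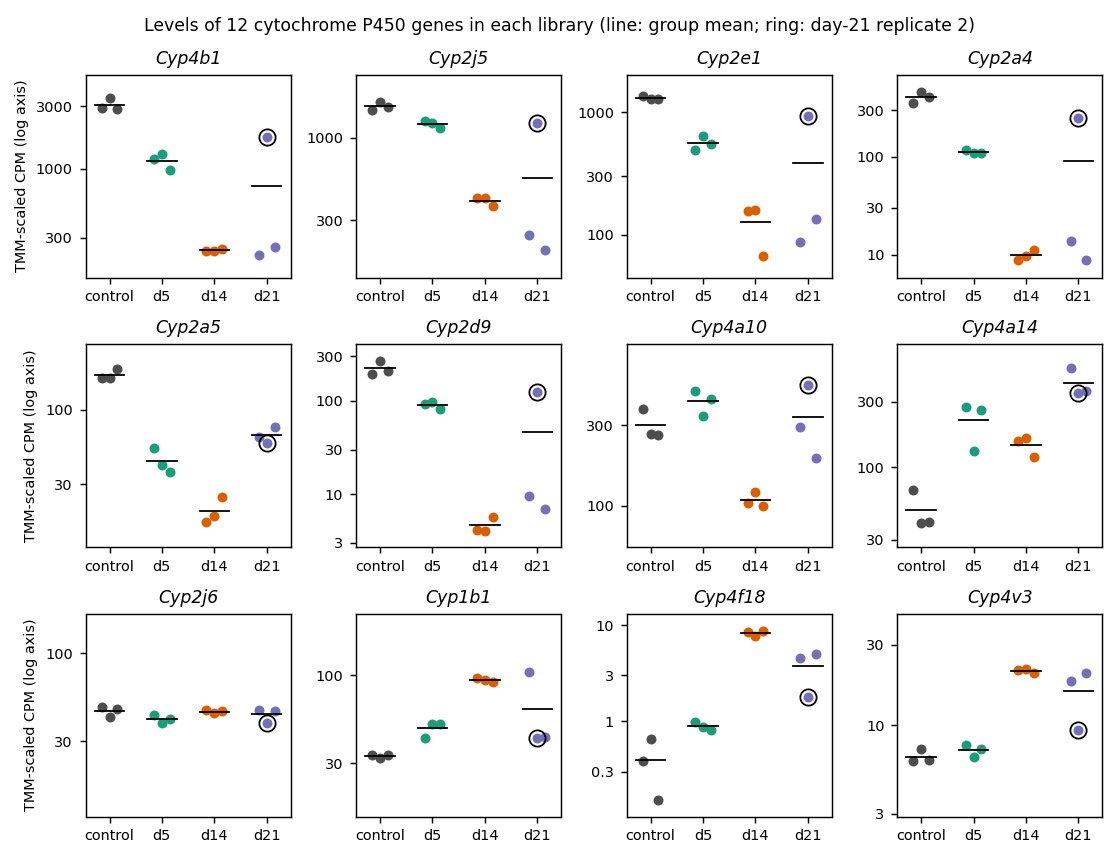
Dots give the TMM-scaled CPM of 12 members in each library on a log axis, lines the group means and rings day-21 replicate 2. Cyp4b1, Cyp2e1, Cyp2a4 and Cyp2d9 in the ringed library lie nearer the controls than the other day-21 libraries do, while Cyp2a5 and Cyp4a14 in it lie among the other day-21 libraries and Cyp2j6 stays between 38.3 and 48.0 throughout.

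The pair Cyp2a4 and Cyp2a5, steroid and coumarin hydroxylases that are 98.5% identical, both fell at day 14. Cyp2a4 was at 353, 461 and 410 CPM in controls, 116, 110 and 110 at day 5, 8.78, 9.62 and 11.1 at day 14, and 13.8, 250 and 8.72 at day 21. Cyp2a5 was at 165, 167 and 191 CPM in controls, 53.8, 41.3 and 36.4 at day 5, 16.4, 18.0 and 24.4 at day 14, and 64.1, 58.3 and 75.4 at day 21. All 3 day-21 libraries held Cyp2a5 above every day-14 library and below every control. Day-21 replicate 2, which lay between day 5 and the controls for Cyp2a4, had the lowest Cyp2a5 of its group.

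Cyp2a5 fell by 1.99 ± 0.18 at day 5 (edgeR adjusted p = 7.89e-05), by 3.15 ± 0.19 at day 14 (adjusted p = 1.99e-06) and by 1.40 ± 0.18 at day 21 (adjusted p = 0.000612) on the log2 scale. From day 14 to day 21 it rose by 1.75 ± 0.18 (adjusted p = 0.000731), and these 4 calls held in every fit that left out 1 library. Cyp2a4 fell by 5.38 ± 1.09 at day 14 (edgeR adjusted p = 0.00164). Its changes of -1.87 ± 0.93 at day 5 and -2.17 ± 0.94 at day 21 did not pass (adjusted p = 0.215 and 0.083), and both passed without day-21 replicate 2 (3.86e-06 and 3.55e-09). The count ratio of Cyp2a4 to Cyp2a5 ran from 2.14 to 3.01 in controls and day-5 libraries, from 0.454 to 0.535 at day 14, and was 0.215, 4.29 and 0.116 at day 21. The difference between the 2 genes was not tested.

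In the Cyp2d subfamily 3 of 4 tested members fell at day 14. Cyp2d12 was at 61.0, 139 and 84.2 CPM in controls, 31.5, 35.0 and 22.4 at day 5, 0.0772, 0.172 and 0.511 at day 14, and 0.484, 41.4 and 0.470 at day 21. Cyp2d9, a testosterone hydroxylase known from male mouse liver and kidney, was at 194, 270 and 210 CPM in controls, 92.5, 96.7 and 81.5 at day 5, 4.11, 4.05 and 5.72 at day 14, and 9.59, 123 and 6.93 at day 21. Every toxin library lay below every control for both genes, and day-21 replicate 2 lay far above the rest of its group. Day 14 gave log2 changes of -8.59 ± 1.74 for Cyp2d12 (edgeR adjusted p = 0.00159) and -5.60 ± 0.99 for Cyp2d9 (adjusted p = 0.000718). At day 21 Cyp2d9 fell by 2.27 ± 0.84 (adjusted p = 0.0492, a call held in 1 of 12 fits that left out a library) and Cyp2d12 changed by -2.77 ± 1.21 (adjusted p = 0.0836, and 1.74e-07 without day-21 replicate 2). Both genes overlap an unnamed entry of 60 bases on the same strand, with 16.5% and 11.8% as many counts as Cyp2d9 and Cyp2d12.

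Cyp2d26 fell by 2.80 ± 0.48 at day 14 (edgeR adjusted p = 0.000623), from a control mean of 131 ± 27.9 CPM to 18.9 ± 3.16. Cyp2d22, by contrast, was at 13.7 to 15.2 CPM in controls, 17.7 to 19.7 at day 14 and 17.8 to 26.6 at day 21, with no overlap of controls and day 21. It rose by 0.37 ± 0.15 at day 14 (edgeR adjusted p = 0.0458, lost in 8 of 12 fits that left out a library) and by 0.66 ± 0.15 at day 21 (adjusted p = 0.00665).

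The Cyp2c members, epoxygenases and drug-metabolising enzymes, held 29.2 ± 3.62 CPM in sum in controls and 6.54 ± 1.34 CPM at day 14. Cyp2c23, the kidney's arachidonic acid epoxygenase, was at 23.0, 29.0 and 25.1 CPM in controls, 27.0, 18.9 and 19.7 at day 5, 5.07, 5.13 and 6.99 at day 14, and 9.13, 15.9 and 7.45 at day 21. It is named for this role, after its values were seen. It fell by 2.17 ± 0.27 at day 14 (edgeR adjusted p = 9.35e-05) and by 1.25 ± 0.26 at day 21 (adjusted p = 0.00508), and its day-5 level overlapped the controls. Both calls held in every fit that left out 1 library.

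Cyp2c69 was at 2.11, 1.96 and 2.16 CPM in controls, 1.22, 1.51 and 1.69 at day 5, 0.0964, 0.0736 and 0.146 at day 14, and 0.412, 1.48 and 0.329 at day 21. It fell by 4.26 ± 0.56 at day 14 (edgeR adjusted p = 0.000132), and Cyp2c68, at 0.356 to 1.39 CPM in controls, fell by 4.46 ± 0.95 (adjusted p = 0.00216). Cyp2c65 went the other way from no counts at all in 3 controls. It had 0, 1 and 4 counts at day 5, 23, 25 and 34 at day 14, and 6, 2 and 21 at day 21. Against a floor of 3 counts over the controls, its level was at least 20.3-fold higher at day 14 and at least 8.35-fold at day 21. Without a control count, it passed the low-count filter only through toxin libraries. Its edgeR calls (adjusted p = 0.00151 and 0.0158) are therefore no separate support for a rise. The counts of members that rose at days 14 and 21 include it. Medians over the members were the same with Cyp2c65 at this bound.

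RefSeq promoters (GRCm38.p6, 250 bases before to 50 after each start) were found for 41 members and searched on both strands for 4 letter strings. CAAAGTCCA, a string known from HNF4 sites, lay in 6 of the 41, or 14.6%, against 0.475% of 32851 promoters. The 6 were Cyp2c40, Cyp2c65, Cyp2c67, Cyp2c68, Cyp2c69 and Cyp3a11. The coding sequences of Cyp2c40, Cyp2c67, Cyp2c68 and Cyp2c69 were 96.5% to 98.1% identical, so their matches may not be independent of each other. TATAAA lay in 18 members, 43.9% against 13.6% of all, and GTTAAT, which is part of HNF1 sites, in 7, 17.1% against 7.1%. GCGTG, the core of AHR sites, lay in 11, 26.8% against 32.4%. The 120 bases before the start are shown for 2 pairs of members, with matches in capitals: Cyp2c69 and Cyp2c65, which hold the same string and moved in opposite directions, and the near-copies Cyp2a4 and Cyp2a5, which both fell at day 14.
Cyp2c69, chr19:39886770-39886889, - strand: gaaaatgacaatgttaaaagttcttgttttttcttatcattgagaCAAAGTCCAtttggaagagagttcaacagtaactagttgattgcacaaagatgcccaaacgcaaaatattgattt
Cyp2c65, chr19:39060886-39061005, + strand: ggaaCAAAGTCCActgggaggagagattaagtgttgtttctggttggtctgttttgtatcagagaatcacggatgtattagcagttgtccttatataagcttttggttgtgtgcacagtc
Cyp2a4, chr7:26307072-26307191, + strand: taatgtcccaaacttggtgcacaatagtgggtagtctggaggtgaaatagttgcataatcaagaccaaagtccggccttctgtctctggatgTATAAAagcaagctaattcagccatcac
Cyp2a5, chr7:26835219-26835338, + strand: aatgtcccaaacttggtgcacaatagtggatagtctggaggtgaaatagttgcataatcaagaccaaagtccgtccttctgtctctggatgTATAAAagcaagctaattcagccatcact
A match describes these letters only. Cyp2c69 and Cyp2c65 lie in 1 cluster of 7 members on chromosome 19 (39049459 to 39875243 in the deposited GRCm39 coordinates).

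The Cyp4a enzymes hydroxylate fatty acids, some of them make 20-HETE from arachidonic acid, and their genes are classical targets of the receptor PPARA. Cyp4a14 rose at all 3 days while its neighbours did not. It was at 68.8, 39.7 and 40.1 CPM in controls, 275, 131 and 259 at day 5, 155, 164 and 119 at day 14, and 521, 346 and 358 at day 21. All 9 toxin libraries lay above all controls, day-21 replicate 2 included. Cyp4a14 rose by 2.16 ± 0.32 at day 5 (edgeR adjusted p = 0.00118), by 1.56 ± 0.31 at day 14 (adjusted p = 0.00143) and by 3.04 ± 0.33 at day 21 (adjusted p = 0.000297) on the log2 scale. From day 14 to day 21 it rose again, by 1.48 ± 0.31 (adjusted p = 0.0125, lost without day-14 replicate 3). The 3 calls against control held in all 12 fits that left out 1 library.

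Cyp4a10 was at 376, 266 and 261 CPM in controls, 481, 338 and 426 at day 5, 103, 120 and 99.6 at day 14, and 293, 516 and 191 at day 21. Cyp4a31 ran beside it at 627, 487 and 476 CPM in controls, 762, 584 and 691 at day 5, 180, 202 and 182 at day 14, and 443, 764 and 287 at day 21, at 1.48 to 1.83 times Cyp4a10 in every library. Both overlapped the controls at days 5 and 21 and lay below them at day 14. Cyp4a10 fell by 1.49 ± 0.31 at day 14 (edgeR adjusted p = 0.00181), and its values at days 5 and 21 were 0.46 ± 0.30 and 0.15 ± 0.30 (adjusted p = 0.347 and 0.707). Cyp4a31 fell by 1.49 ± 0.29 at day 14 (adjusted p = 0.00123). From day 14 to day 21 both rose, by 1.63 ± 0.31 (adjusted p = 0.00859) and 1.40 ± 0.29 (adjusted p = 0.012). Cyp4a32 fell by 2.50 ± 0.72 at day 14 (adjusted p = 0.0111, lost without control replicate 1, which had 41.7 CPM against 7.95 and 9.38 in the other controls).

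The balance within the subfamily shifted: counts of Cyp4a14 were 0.149 to 0.183 of those of Cyp4a10 in controls, 0.388 to 0.607 at day 5 and 1.20 to 1.51 at day 14, and 1.78, 0.672 and 1.87 at day 21. The summed Cyp4a level was 900 ± 185 CPM in controls, and 1330 ± 240, 445 ± 42.9 and 1260 ± 400 CPM at the 3 days. Of the fixed list of 8 other PPARA targets, 3 rose at day 5, 1 rose and 5 fell at day 14, and 3 rose and 3 fell at day 21. Without day-21 replicate 2, 3 rose and 1 fell at day 5, 1 rose and 5 fell at day 14, and 2 rose and 5 fell at day 21. For all genes, rises were 9.77%, 31.2% and 24.3% and falls 5.09%, 28.8% and 18.5% at the 3 days. In the fit without that library, rises were 17.4%, 34.7% and 33.2% and falls 14.9%, 30.9% and 28.4%. Pdk4, which blocks pyruvate oxidation, rose by 3.62 ± 0.25 at day 5 (edgeR adjusted p = 1.77e-05) and was at 0.07 ± 0.23 at day 14 (adjusted p = 0.812). Acot1, an acyl-CoA thioesterase, rose by 1.35 ± 0.13 at day 5 (adjusted p = 0.000123), and Vnn1 fell by 1.49 ± 0.18 at day 14 (adjusted p = 7.72e-05). The 2 letter-suffixed neighbours, Cyp4a12a and Cyp4a12b, changed their ratio too, from 1.84 to 2.57 in controls to 0.606 to 0.654 at day 14, and are near-copies outside the rule.

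The Cyp4f subfamily, which inactivates leukotrienes, had members that rose and members that fell. Cyp4f18, known for oxidation of leukotriene B4 in neutrophils and other myeloid cells, was at 0.386, 0.663 and 0.154 CPM in controls, 0.990, 0.867 and 0.820 at day 5, 8.41, 7.63 and 8.77 at day 14, and 4.60, 1.80 and 4.96 at day 21. No toxin library overlapped the controls. It rose by 4.35 ± 0.46 at day 14 (edgeR adjusted p = 3.97e-05) and by 3.23 ± 0.45 at day 21 (adjusted p = 0.000961), and at day 5 it was at 1.14 ± 0.47 (adjusted p = 0.138, and 0.0209 without day-21 replicate 2). Cyp4f18 lies on chromosome 8 (72742326 to 72763470, GRCm39), away from the other Cyp4f genes. Its annotated span overlaps Zfp961 on the opposite strand by 5311 bases, and Zfp961 had 5122 counts against 1699, so without strand information reads of the 2 cannot be told apart.

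Macrophage markers were higher along with Cyp4f18 at days 14 and 21. At day 5 their sum overlapped the controls, while Cyp4f18 lay above its controls. The summed level of 7 of them, Lyz2 and C1qa included, was 72.6 to 96.1 CPM in controls, 77 to 87.1 at day 5, 734 to 760 at day 14 and 218 to 435 at day 21. At day 5, 2 rose and 1 fell (4 and 1 without day-21 replicate 2), where 9.77% of all genes rose and 5.09% fell (17.4% and 14.9%). All 7 rose at day 14 and 6 at day 21, against 31.2% and 24.3% of all genes. The part of these markers in the rise of Cyp4f18 was not tested.

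Cyp4f16 was at 5.40, 4.37 and 5.37 CPM in controls, 5.38, 5.73 and 6.78 at day 5, 15.1, 14.2 and 15.7 at day 14, and 12.7, 5.71 and 15.5 at day 21. It rose by 1.57 ± 0.28 at day 14 and 1.17 ± 0.28 at day 21 (edgeR adjusted p = 0.000828 and 0.0099). Cyp4f17 was at 5.65 to 6.47 CPM in controls, 8.05 to 9.72 at day 5, 10.1 to 12.0 at day 14 and 6.39 to 9.82 at day 21. It rose by 0.55 ± 0.16, 0.87 ± 0.16 and 0.45 ± 0.16 at the 3 days (edgeR adjusted p = 0.037, 0.000816 and 0.0379). Its day-14 call held in every fit that left out 1 library, its day-5 call in 5 of 12 and its day-21 call in 3 of 12.

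Cyp4f13 and Cyp4f14 fell. Cyp4f13 was at 27.6, 23.9 and 26.4 CPM in controls, 19.8, 19.1 and 20.6 at day 5, 17.4, 15.4 and 15.0 at day 14, and 17.0, 18.2 and 16.2 at day 21, so that no toxin library overlapped the controls. It fell by 0.39 ± 0.09, 0.71 ± 0.09 and 0.60 ± 0.09 at the 3 days (edgeR adjusted p = 0.0135, 0.000104 and 0.00124). The day-14 change was smaller than that day's shift between scalings, 0.73, and was 0.02 by library totals alone. Shifts at days 5 and 21, 0.14 and 0.48, were smaller than the changes at those days. The day-5 call was lost without day-5 replicate 2. Cyp4f14, a leukotriene hydroxylase, was at 1.36, 2.26 and 1.51 CPM in controls, 1.02, 0.671 and 0.796 at day 5, 0.0193, 0.0491 and 0.0487 at day 14, and 0.0242, 1.12 and 0.0705 at day 21. It fell by 5.39 ± 1.09 at day 14 (adjusted p = 0.00156). Cyp4f15, Cyp4f37 and Cyp4f39 were under 1.3 CPM in every library and had no call at any day, although Cyp4f37 rose at days 14 and 21 without day-21 replicate 2 (adjusted p = 0.0485 and 0.024).

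**Figure D4:**
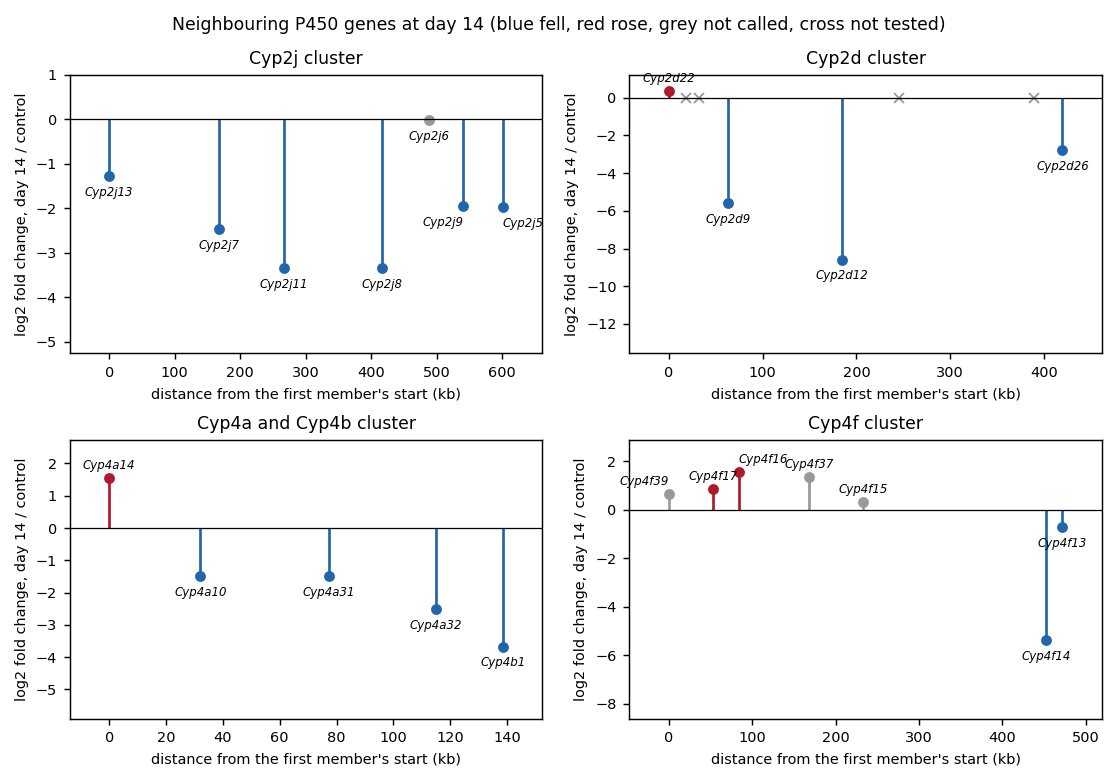
Each panel gives the day-14 log2 fold change of the members of 1 gene cluster against the distance of their start from that of the first member, in kb, with called falls in blue, called rises in red, uncalled genes in grey and untested genes as crosses. Cyp2j6 stands at -0.02 between neighbours that fell, Cyp4a14 rose beside 4 genes that fell, and Cyp4f16 and Cyp4f17 rose in the cluster that holds the falling Cyp4f14 and Cyp4f13.

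Neighbours within a cluster moved in different directions at day 14. The Cyp4a and Cyp4b cluster on chromosome 4 (115343397 to 115504920) held 4 members that fell and 1 that rose within 162 kb. The Cyp4f cluster on chromosome 17 (32671697 to 33166376) held 2 that fell, 2 that rose and 3 without a call within 495 kb. In the Cyp2d cluster on chromosome 15 (82254728 to 82678495), 3 fell and 1 rose, and in the Cyp2j cluster on chromosome 4 (95915771 to 96552391), 6 fell and 1 had no call. All coordinates are those of the deposited table, GRCm39.

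Cyp4v3, the mouse counterpart of CYP4V2, a fatty acid hydroxylase that is mutated in Bietti crystalline dystrophy, was at 6.14, 7.20 and 6.21 CPM in controls, 7.69, 6.49 and 7.26 at day 5, 21.4, 21.5 and 20.5 at day 14, and 18.4, 9.37 and 20.3 at day 21. Day-14 and day-21 libraries all lay above the controls. It rose by 1.70 ± 0.23 at day 14 (edgeR adjusted p = 0.000154) and 1.30 ± 0.23 at day 21 (adjusted p = 0.00254), in every fit that left out 1 library. A predicted gene on the same strand, Gm45753, overlaps Cyp4v3 and had 44.1% as many counts. Cyp4x1, a family 4 enzyme of the brain, had 0, 0 and 1 counts in controls and 3, 3 and 8 at day 14 and was not tested.

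Family 1 enzymes oxidise aromatic hydrocarbons and are the best-known targets of the receptor AHR. Cyp1b1, which also acts on retinoids and steroids and is found in stromal and vascular cells, was at 33.5, 32.3 and 33.6 CPM in controls, 42.4, 51.2 and 51.4 at day 5, 96.2, 93.2 and 90.8 at day 14, and 104, 42.4 and 43.2 at day 21. Every toxin library lay above the controls, and at day 21 the first library was well above the other 2. It rose by 1.49 ± 0.28 at day 14 (edgeR adjusted p = 0.00111) and by 0.93 ± 0.28 at day 21 (adjusted p = 0.0235, lost without any 1 control). The summed level of 7 fibroblast and pericyte markers was 136 to 205 CPM in controls and 903 to 953 at day 14. All 7 rose at days 14 and 21, against 31.2% and 24.3% of all genes. At day 21 these markers summed to 802, 269 and 572 CPM, so that replicate 3 was above replicate 2 in the markers and level with it in Cyp1b1. Their part in the rise of Cyp1b1 was not tested.

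Cyp1a1 was at 0.831, 1.30 and 0.957 CPM in controls, 0.825, 0.979 and 0.845 at day 5, 0.386, 0.344 and 0.341 at day 14, and 0.218, 1.06 and 0.259 at day 21. The day-14 libraries lay below the controls, and it fell by 1.51 ± 0.49 (edgeR adjusted p = 0.0204, lost in 3 of 12 fits that left out a library). Cyp1a2 had 2 counts in all and was outside the rule. Of 4 tested members of the fixed list of other AHR targets, 1 fell at day 5, 3 at day 14 and 1 at day 21. Without day-21 replicate 2, 1 fell at day 5, 3 fell and 1 rose at day 14, and 2 fell at day 21. Falls among all genes were 5.09%, 28.8% and 18.5% at the 3 days, and 14.9%, 30.9% and 28.4% in that fit. Ugt1a6a fell by 0.41 ± 0.12, 1.28 ± 0.12 and 0.32 ± 0.12 (edgeR adjusted p = 0.0387, 1.99e-05 and 0.0499), and Nqo1 fell by 1.23 ± 0.18 at day 14 (adjusted p = 0.00024). Tiparp, a repressor of AHR, fell by 0.62 ± 0.23 at day 14 (adjusted p = 0.0366).

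Family 3, which holds the main drug-metabolising enzymes of the liver, was nearly silent. Cyp3a13 was at 0.742, 0.422 and 0.772 CPM in controls, 1.29, 1.17 and 1.23 at day 5, 1.66, 1.89 and 2.00 at day 14, and 1.60, 0.642 and 3.03 at day 21. It rose by 1.51 ± 0.45 at day 14 (edgeR adjusted p = 0.0133) and by 1.46 ± 0.45 at day 21 (adjusted p = 0.0257, lost without any 1 control or day-21 replicate 3). Cyp3a11 and Cyp3a57 had 23 and 10 counts over all 12 libraries, at most 4 in any 1, and were not tested.

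Among single-gene subfamilies of family 2, Cyp2u1, a fatty acid hydroxylase, was at 4.09, 4.91 and 4.97 CPM in controls, 3.20, 2.15 and 2.75 at day 5, 3.12, 3.31 and 3.56 at day 14, and 3.87, 6.03 and 5.26 at day 21. Cyp2u1 fell by 0.79 ± 0.20 at day 5 (edgeR adjusted p = 0.0215) and by 0.48 ± 0.19 at day 14 (adjusted p = 0.0496), and by library totals alone the day-14 value was 0.25. Its day-5 call was lost in 4 of 12 fits that left out a library and its day-14 call in 7 of 12. Cyp2r1, a vitamin D hydroxylase, was at 0.890 to 1.33 CPM in controls and 1.21 to 1.99 CPM afterwards, with no call at any day. Cyp2f2 varied from 0.365 to 6.33 CPM with no call. Cyp2s1, a retinoid-metabolising enzyme of epithelia, was at 9.25 to 14.3 CPM in controls and 18.8 to 20.3 at day 14, and rose by 0.66 ± 0.26 (adjusted p = 0.0426, lost in 9 of 12 fits that left out a library). Cyp2f2 overlaps the antisense gene Gm15883, which had 205% as many counts, so reads of the 2 cannot be told apart without strand.

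The other untested members were low in every group. Cyp2b10, Cyp2b23, Cyp2c29, Cyp2c38, Cyp2c40, Cyp2c67, Cyp2d10 and Cyp2d11 had 12 to 70 counts over the 12 libraries. Cyp2c40 was the highest, at 9, 22 and 11 counts in controls and 0, 0 and 2 at day 14. It passed the low-count filter only in the fit without day-21 replicate 2, where the smallest group is smaller, and its counts were highest in controls. Its fall at day 14 in that fit (edgeR adjusted p = 0.000603) is therefore no separate support. The falls counted at days 14 and 21 in that fit include it. Cyp2d34 and Cyp2d40 had 23 and 17 counts in day-14 replicate 1 and at most 3 in any other library.

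Between days 5 and 14, 20 members fell and 6 rose, against 26.1% and 24.7% of all genes. Without day-21 replicate 2, 21 fell and 9 rose, against 30.1% and 29.5% of all genes. Cyp2d12, Cyp4f14 and Cyp2d9 fell by 6.91 ± 1.69, 4.34 ± 1.12 and 4.29 ± 0.93 (edgeR adjusted p = 0.00653, 0.00862 and 0.00369), and Cyp4f18 and Cyp4v3 rose by 3.21 ± 0.42 and 1.56 ± 0.23 (adjusted p = 0.000289 and 0.000502). Between days 14 and 21, 9 members rose, against 7.03% of all genes, and 0 fell, against 7.57%. At an unadjusted p under 0.05, 3 were lower in edgeR at day 21, and DESeq2 and limma-voom called 1 fall each.

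The 9 that rose after day 14 were Cyp2a5, Cyp2c23, Cyp2c69, Cyp2d9, Cyp2d12, Cyp2d26, Cyp4a10, Cyp4a14 and Cyp4a31. Without day-21 replicate 2, 10 rose and 4 fell of 40 tested members, against 12.5% and 11.4% of all genes. Cyp2c23 and Cyp2d12 lost their calls, Cyp2d22, Cyp2j11 and Cyp4a32 gained one, and Cyp2j5, Cyp2j9, Cyp2j13 and Cyp4f18 fell. Leaving out day-14 replicate 1, 2 or 3 left 3, 4 and 4 rises, and leaving out day-21 replicate 1 or 3 gave 16 each. Without day-21 replicate 2 the changes after day 14 were -0.87 for Cyp2j5 and -1.30 for Cyp2j13 (edgeR adjusted p = 0.000328 and 0.000248), and Cyp2a5 rose by 1.83 on the log2 scale (adjusted p = 0.000134). Cyp2a5 and Cyp4a10 were the only members whose rise after day 14 held in all 12 fits that left out 1 library.

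Genes for the partners of P450 enzymes were taken from a fixed list. Of 7 electron donors and heme chaperones, 1 fell at day 5, 5 fell and 1 rose at day 14, and 4 fell at day 21. Leaving out day-21 replicate 2 gave 3 falls at day 5, 5 falls and 1 rise at day 14, and 6 falls and 1 rise at day 21. The shares of all genes that fell were 5.09%, 28.8% and 18.5% at the 3 days, and 14.9%, 30.9% and 28.4% in that fit. Rises made up 9.77%, 31.2% and 24.3% of all genes, and 17.4%, 34.7% and 33.2% in that fit. Por, the reductase that feeds every microsomal P450, fell from 311 CPM in controls to means of 173, 113 and 140, by 0.85 ± 0.16, 1.47 ± 0.16 and 1.15 ± 0.16 on the log2 scale (edgeR adjusted p = 0.00489, 4.74e-05 and 0.000881). Cyb5a, cytochrome b5, fell by 2.13 ± 0.32 at day 14 (adjusted p = 0.000292), and Pgrmc1, a heme-binding partner, by 0.64 ± 0.08 (adjusted p = 0.000139). Of the enzymes that make heme, Alad, an early one, and Fech, which inserts the iron, fell by 0.92 ± 0.10 and 1.26 ± 0.17 at day 14 (adjusted p = 3.84e-05 and 0.000179).

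Heme breakdown was split. Hmox1, heme oxygenase, was at a mean of 24.9 CPM in controls and 72.9 at day 5, and rose by 1.55 ± 0.22 (edgeR adjusted p = 0.000887), then by 0.94 ± 0.21 at day 21 (adjusted p = 0.00767). At day 14 it was at 0.32 ± 0.21 (adjusted p = 0.212), while Blvra and Hmox2 fell by 0.78 ± 0.09 and 0.51 ± 0.10 (adjusted p = 7.25e-05 and 0.0013). Ephx2, the soluble hydrolase that opens arachidonic acid epoxides, fell by 2.21 ± 0.36 at day 14 and 1.07 ± 0.35 at day 21 (adjusted p = 0.000463 and 0.0308). Ephx1, its microsomal counterpart, fell by 0.81 ± 0.18 at day 5 (adjusted p = 0.012), and Ephx3 had no call.

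Of 19 tested regulators of P450 genes, 5 fell and 1 rose at day 5, 10 fell and 4 rose at day 14, and 11 fell and 2 rose at day 21. With day-21 replicate 2 left out, 6 fell and 4 rose at day 5, 10 and 4 at day 14, and 13 and 2 at day 21. Among all genes, 5.09% fell and 9.77% rose at day 5, 28.8% and 31.2% at day 14, and 18.5% and 24.3% at day 21. In the fit without that library the shares were 14.9% and 17.4%, 30.9% and 34.7%, and 28.4% and 33.2%. The 3 PAR bZIP factors, clock-controlled activators of detoxification genes, fell at every day. Dbp had a control mean of 104 CPM and means of 4.07, 14.2 and 25.5 CPM at the 3 days, with a log2 change of -4.67 ± 0.30 at day 5 (edgeR adjusted p = 1.51e-05). Tef and Hlf fell by 1.99 ± 0.13 and 1.47 ± 0.19 at day 5 (adjusted p = 1.51e-05 and 0.000584). The hour of sampling is not given, so a difference in time of day cannot be told apart from the groups. Named after their values were seen, Hnf4a fell by 1.51 ± 0.32 and Ppara by 1.34 ± 0.24 at day 14 (adjusted p = 0.00208 and 0.000675), and Ahr rose by 1.01 ± 0.20 (adjusted p = 0.00141).

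Markers of other tissues were checked as further sources of P450 transcripts. Of 10 hepatocyte genes, Ahsg, Tat and Hamp had 12, 9 and 10 counts over all 12 libraries, and Alb was at 6.84 to 7.45 CPM in controls and 0.212 to 0.344 at day 14. Apob and Serpina1a of the same list were higher, at 196 to 273 and 121 to 145 CPM in controls, and Ttr was at 37.9 to 50.5 CPM. The 7 tested hepatocyte genes all fell at day 14, while Serpina1a and Apoa1 rose at day 5 (edgeR adjusted p = 0.0468 and 0.0105). Of 6 adrenal cortex genes 3 were tested, and 1 rose at day 5 and 1 fell at day 14 (2 fell at day 14 without day-21 replicate 2). Akr1b7, the one that rose, was at 1.81 to 2.37 CPM in controls and 7.86 to 11.0 CPM at day 5, a log2 change of 2.23 (adjusted p = 0.000134), and was named after its values were seen, as were Apob, Serpina1a, Apoa1 and Ttr. Of 6 endothelial genes 4 fell at day 14 and 2 at day 21, where 28.8% and 18.5% of all genes fell. Of the 12 tested P450 genes of families 5 and above, 3 fell and 3 rose at day 14 (4 and 3 without day-21 replicate 2). Among all genes 28.8% fell and 31.2% rose at that day (30.9% and 34.7% without day-21 replicate 2). The median log2 change of these 12 P450 genes was -0.01 where that of the members was -1.49. The summed level of all 21 genes of these families was also lower than its control mean of 552 CPM. It was at 75.4%, 35.1% and 43.1% of that mean at the 3 days, against 62.2%, 20.7% and 41% for the members. These differences were not tested.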

How the data were processed

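Whole-kidney poly(A) RNA from 12 Pod-TRECK mice was sequenced as paired-end reads in what the labels call 1 batch. Raw read counts per gene on GRCm39 were deposited by the authors in a single table. Per the submitters' processing notes, reads were trimmed with fastp 0.20.0 and counted with featureCounts. Not given in the sources used here are the aligner, whether counting used strand, and how multiply matching reads were counted.

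All 12 libraries entered 1 edgeR 4.0.16 quasi-likelihood fit (R 4.3.3), after edgeR's default filter by group, with TMM scaling. P-values were adjusted by Benjamini-Hochberg over all 19821 tested genes, and a call needed an adjusted p under 0.05. An SE is the absolute log2 fold change over the square root of F. Alternatives were DESeq2 1.42.0, limma-voom (limma 3.58.1), other scalings and filters, a replicate block, the 6 compared libraries alone, and leaving out each library. The scripts were tested on simulated data.

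Members and gene lists were chosen with earlier results of these data known. Library values are printed for the highest 3 members of each family, the largest called changes and the highest members without a call. Up to 3 genes of each list are named by the joint test over days, and others are said to be chosen after their values were seen. The count over the heme synthesis list is not reported here. Protein sequences were not used here.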

Additional observations from a re-analysis of the deposited data

Results flagged for a closer look

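Differences between days were singled out because 1 gene stood on opposite sides of the control at the 2 days and the difference between the days passed the edgeR test. Between days 5 and 14, Cyp2s1 differed by 1.03 on the log2 scale, from -0.37 to 0.66 against control (adjusted p = 0.00723). Cyp4a10 differed by -1.95, from 0.46 to -1.49 (adjusted p = 8e-04), and Cyp4a31 by -1.85, from 0.36 to -1.49 (adjusted p = 0.000745). From day 14 to day 21, Cyp4a10 differed by 1.63, from -1.49 to 0.15 (adjusted p = 0.00859). Of the values against control, those at day 14 passed the test, and those at days 5 and 21 did not.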

How the results depend on the processing

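Scaled by library totals alone, 1 member fell and 1 rose at day 5, 13 rose from day 5 to day 14, and the summed level was 8310, 5720 and 2850 CPM in controls, at day 5 and at day 14. That scaling also turned Cyp2u1 to 0.25 and Cyp4f13 to 0.02 at day 14, and Cyp4f13 to 0.27 between days 5 and 14. With only the 6 libraries compared, 13 fell and 4 rose at day 5, 4 fell and 3 rose at day 21, 10 rose from day 5 to day 14 and 2 rose from day 14 to day 21. From day 14 to day 21, DESeq2 gave 1 fall and 17 rises, and limma-voom 1 fall. The cause of these moves was not tested.

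Over the fits that left out 1 library, falls numbered 1 to 13 at day 5, 20 to 25 at day 14, 3 to 20 at day 21, 14 to 21 from day 5 to day 14 and 0 to 4 from day 14 to day 21. Rises numbered 1 to 4, 7 to 11, 6 to 11, 5 to 9 and 3 to 16 in the same order. The 93 calls of single members kept direction and significance in 72 to 91 cases in these fits. Replicate numbers are not stated to pair the mice. Deviations of same-numbered samples correlated between -0.156 and 0.208, over 0.1 in 5 of 18 pairs, which cannot settle whether they do. With the replicate number as a block, 1 member rose at day 5 and 87 of the 93 calls held.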
